A study of Caenorhabditis elegans with 43 samples.

Results

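Small RNAs of whole Caenorhabditis elegans hermaphrodites were counted on annotated genes, and the protein-coding genes described here are those whose counts were low without snpc-1.3. They were chosen from the count table by their level in CPM (a gene's counts per 1000000 counts on all features of the library). A gene was a member where it was protein coding, lay outside chromosome IV, had a mean of at least 2 CPM in WT worms at 48 hr, and had a WT mean at least 3 times the snpc-1.3(-) mean at the same stage. The rule was met by 126 genes, out of 16906 coding genes outside chromosome IV and 46904 features in the table. Only 1288 of those coding genes reached the WT level that the rule asks for, so the members made up 9.78% of the genes that could have been chosen. Because the rule used the snpc-1.3(-) and WT libraries of 48 hr, the values of that contrast are a description here, with no test of the members.

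SNPC-1.3 is a homolog of a subunit of the complex that starts transcription of small nuclear RNA genes, and works with SNPC-4 at the loci of male piRNAs. piRNAs of the worm, also called 21U-RNAs, are short RNAs bound by the Argonaute PRG-1, mostly transcribed individually from clusters on chromosome IV. A messenger RNA recognised by PRG-1 becomes a template for 22G-RNAs, which RNA-dependent RNA polymerases make as antisense copies of it. Reads in the sense direction of a coding gene are of another kind, and can be pieces of its transcript or small RNAs that share its sequence.

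The study followed spermatogenesis (48 hr, L4 larvae) and oogenesis (72 hr, gravid adults) at 20°C, and 4 groups are used here. The snpc-1.3(-) worms at 48 hr carried snpc-1.3(xk27), a loss-of-function allele with an early stop codon, and gave 2 libraries. They were set against 3 libraries of WT (N2) worms at 48 hr. The snpc-1.3(2xtbs) worms at 72 hr gave 3 libraries, and their label names snpc-1.3(xk36), in which 2 binding sites of the repressor TRA-1 in the snpc-1.3 promoter are mutated and SNPC-1.3a carries a 3xFlag tag. They were set against 3 libraries of WT worms at 72 hr. All libraries came from whole worms, in which fewer germ cells and less RNA per germ cell cannot be told apart. Each stage was sequenced on its own flow cell, so stage and flow cell cannot be told apart. The labels do not say that replicates came from separate cultures, so a p-value measures only the spread between these libraries.

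The libraries held from 4336397 to 22346249 counts on features. A single count was worth from 0.0448 to 0.231 CPM. The stage labels were checked with the embryonic miRNAs mir-35 to mir-42, which summed to 116153 to 170250 CPM in the 6 libraries of 72 hr and to 4491 to 5214 CPM in the 5 libraries of 48 hr. The gene snpc-1.3 itself had 0 and 1 counts in the snpc-1.3(-) libraries and 1, 5 and 2 counts in WT at 48 hr, which is too few to check the genotype. In snpc-1.3(2xtbs) replicate 1 only 1.18% of counts fell on coding genes outside chromosome IV, against 2.80% to 4.50% in the other 10 libraries, so values at 72 hr are also given without it.

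Summed over the 126 members, the snpc-1.3(-) libraries held 105 and 157 CPM, against 609, 518 and 731 CPM in WT at 48 hr. All coding genes outside chromosome IV summed to 29352 and 28664 CPM in the snpc-1.3(-) libraries, and to 33629, 28778 and 35380 CPM in WT at 48 hr. At 72 hr the members summed to 189, 524 and 739 CPM in snpc-1.3(2xtbs) and to 522, 590 and 398 CPM in WT. A single member, Y66D12A.3, supplied 22.5% to 36.8% of the sums in snpc-1.3(2xtbs) and 29.2% to 32.0% of those in WT at 72 hr. Without it the snpc-1.3(2xtbs) libraries summed to 146, 358 and 467 CPM and the WT libraries of that stage to 355, 407 and 281 CPM.

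**Figure D1:**
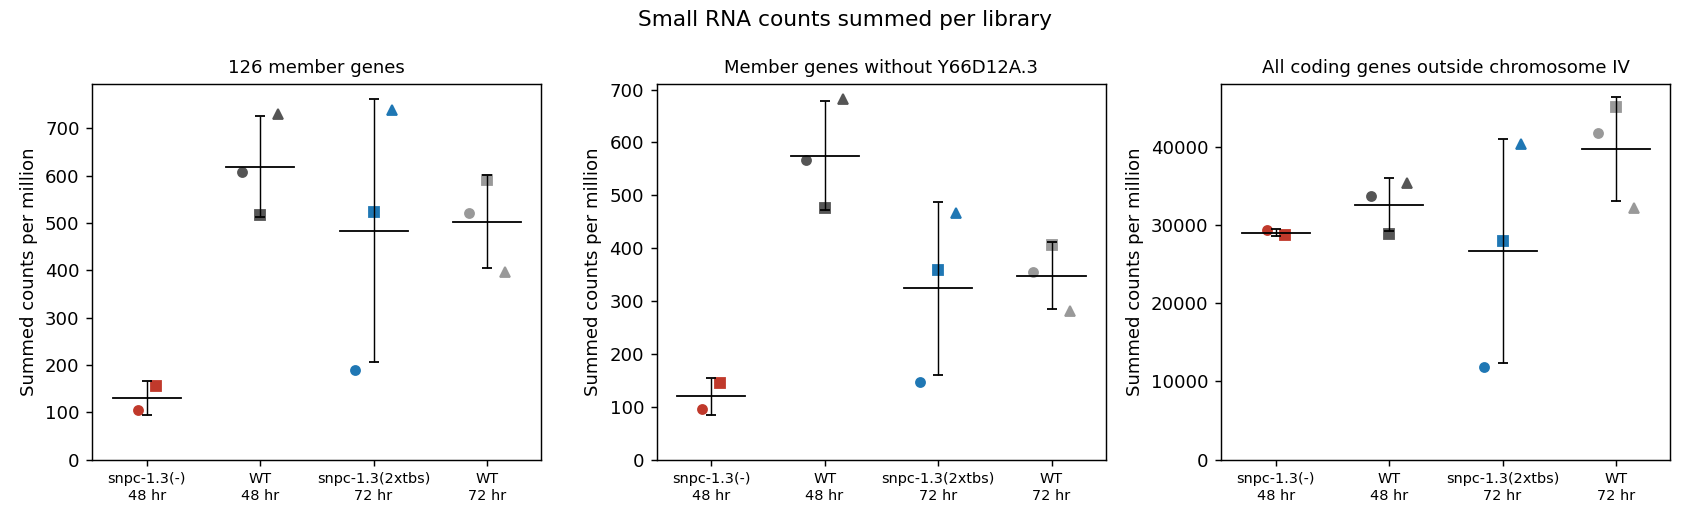
CPM summed per library over the 126 members (left), the members without Y66D12A.3 (middle) and all coding genes outside chromosome IV (right). Points are libraries (circle, square and triangle for replicates 1, 2 and 3), horizontal lines are group means and bars are SD. The members' sums of 105 and 157 CPM in snpc-1.3(-) lie below every other library, and snpc-1.3(2xtbs) replicate 1 is low in all 3 panels.

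Most members had few reads. Their median level was 0.766 CPM in snpc-1.3(-) and 3.21 CPM in WT at 48 hr, and it was 0.750 CPM in snpc-1.3(2xtbs) and 1.01 CPM in WT at 72 hr. Under 5 CPM in WT at 48 hr were 97 of the 126, and only 7 had 10 CPM or more. Per kilobase of exon, the median WT level at 48 hr was 3.15 CPM over the members and 3.54 CPM over the 1288 genes that met the WT minimum. The median exon length was 1270 bases in the members and 1403 bases in those 1288 genes.

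Members were spread over the chromosomes that the rule allowed, with 20 on chromosome I, 34 on II, 26 on III, 30 on V and 16 on X. This was 6.80%, 12.5%, 10.4%, 10.9% and 8.51% of the genes of each chromosome that met the WT minimum.

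The 4 members with the largest difference in CPM at 48 hr were ZC178.2, Y66D12A.3, clec-223 and cosa-1. ZC178.2 (chromosome V, 8699736 to 8712010 in WBcel235) had 0 and 2.54 CPM in snpc-1.3(-), against 43.1, 45.9 and 32.5 CPM in WT at 48 hr. These were 0 and 29 counts against 245, 487 and 141 counts, and the libraries of the genotypes did not overlap. At 72 hr it had 6.71, 37.6 and 42.4 CPM in snpc-1.3(2xtbs) and 26.8, 35.6 and 22.1 CPM in WT, and these libraries overlapped.

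The gene clec-223 (chromosome V, 11273148 to 11278161) encodes a protein with a C-type lectin domain. It had 0.149 and 1.14 CPM in snpc-1.3(-), against 25.9, 29.0 and 35.1 CPM in WT at 48 hr, a ratio of means of 0.0215. It was also low in both groups of 72 hr, with 1.97, 3.90 and 5.68 CPM in snpc-1.3(2xtbs) and 9.68, 7.38 and 5.62 CPM in WT. Each library of 72 hr thus lay above both snpc-1.3(-) libraries and below all 3 WT libraries of 48 hr.

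Y66D12A.3 (chromosome III, 11589211 to 11592837) had the highest level of all members. Its snpc-1.3(-) libraries held 9.36 and 11.4 CPM, against 42.0, 41.9 and 50.0 CPM in WT at 48 hr. At 72 hr it reached 42.5, 166 and 272 CPM in snpc-1.3(2xtbs) and 167, 183 and 116 CPM in WT. It was 1 of only 3 members, with daf-25 and mlt-11, whose mean in WT was at least 3 times higher at 72 hr than at 48 hr, against 6.91% of the 1288 genes.

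The meiotic gene cosa-1 (chromosome III, 2726080 to 2731670) encodes a cyclin-related protein needed for crossovers. It had 4.31 and 6.32 CPM in snpc-1.3(-), against 32.0, 28.1 and 28.1 CPM in WT at 48 hr. In adults it had 11.2, 45.6 and 56.0 CPM in snpc-1.3(2xtbs) and 28.6, 38.1 and 28.6 CPM in WT. WT levels of cosa-1 thus overlapped between the stages, and only the snpc-1.3(-) libraries and snpc-1.3(2xtbs) replicate 1 lay below all WT libraries.

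The Rhesus-related ammonium transporter gene rhr-1 had 1.19 and 1.93 CPM in snpc-1.3(-), against 11.4, 10.7 and 15.5 CPM in WT at 48 hr. T23B12.8 had 2.97 and 4.30 CPM in snpc-1.3(-), against 10.4, 12.1 and 13.4 CPM in WT at 48 hr. For zhit-1, a gene for a protein with a HIT-type zinc finger, the values were 0.891 and 0.176 CPM in snpc-1.3(-) and 8.44, 7.64 and 7.84 CPM in WT at 48 hr. In these 3 genes both snpc-1.3(-) libraries lay below all WT libraries of 48 hr, although replicate 2 was not 3-fold below the WT mean in T23B12.8. The WT libraries of 72 hr gave 8.69, 8.39 and 2.63 CPM on rhr-1 and 9.68, 8.39 and 4.30 CPM on zhit-1, so neither gene was near 0 in WT adults.

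Other members rested on unequal libraries. F41C3.2 had 4.46 and 1.32 CPM in snpc-1.3(-), against 9.15, 2.73 and 18.0 CPM in WT at 48 hr, so that WT replicate 2 lay between the snpc-1.3(-) libraries. F35E8.13 had 3.71 and 0.965 CPM in snpc-1.3(-) and 9.50, 1.79 and 15.2 CPM in WT, again with an overlap. Over the members, 1 library gave more than 50% of the summed WT level of 48 hr in 38 genes. In 32 of these it was WT replicate 3, which was also the shallowest library. In 2 members chosen after their values were seen, fath-1 took 79.0% and sorf-2 took 89.8% of the WT level from that library.

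**Figure D2:**
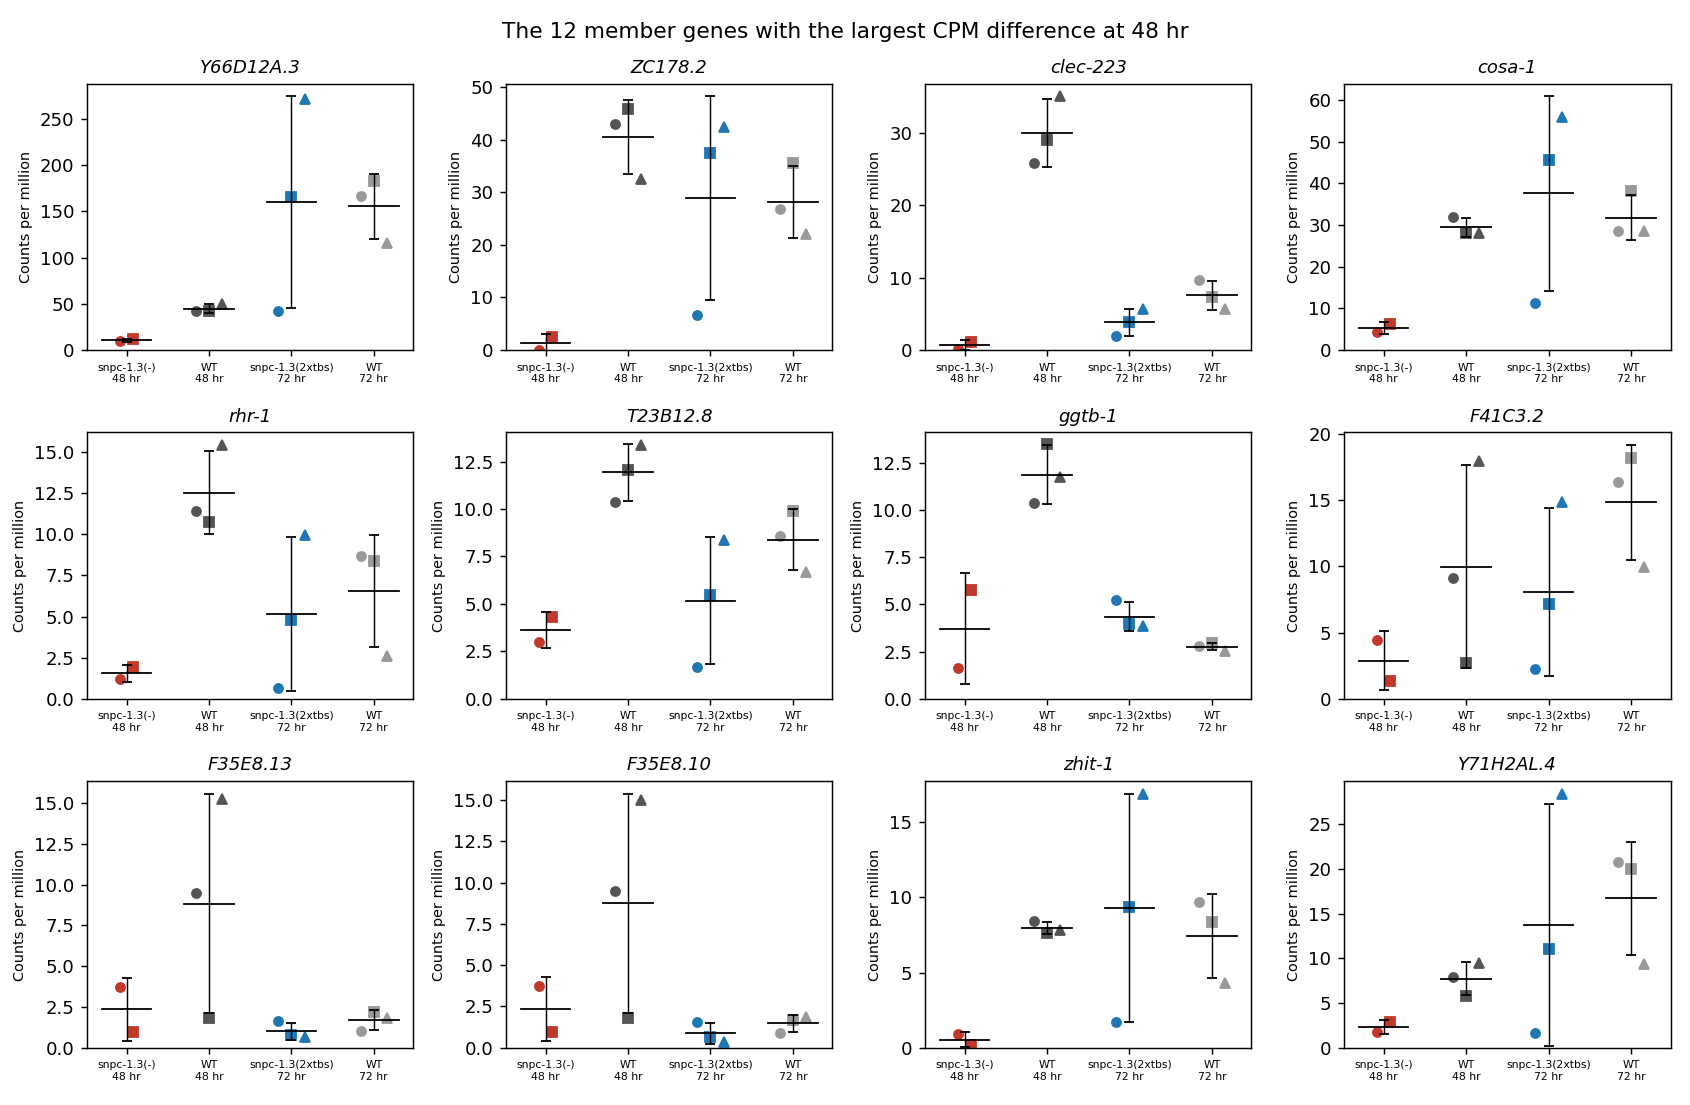
CPM of the 12 members with the largest difference between snpc-1.3(-) and WT means at 48 hr. Points are libraries (circle, square and triangle for replicates 1, 2 and 3), horizontal lines are group means and bars are SD. At 48 hr ZC178.2, clec-223, cosa-1 and zhit-1 show tight WT libraries far above snpc-1.3(-), while F41C3.2, F35E8.13 and F35E8.10 have a WT replicate 2 within the range of snpc-1.3(-).

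The snpc-1.3(-) group had only 2 libraries, and these differed from each other over the members. Both were at least 3-fold below the WT mean in 49 of the 126 members, only replicate 1 was in 50, and only replicate 2 was in 27. Replicate 1 had the lower level in 83 members and held 0 counts in 26, against 2 members at 0 counts in replicate 2. In 97 members both snpc-1.3(-) libraries lay below all 3 WT libraries, which was also so in 29.6% of the 1288 genes. The members at 0 counts in both snpc-1.3(-) libraries were nspc-5, with 13, 35 and 11 counts in WT at 48 hr, and nspc-2, with 12, 30 and 8 counts, chosen after their values were seen.

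**Figure D3:**
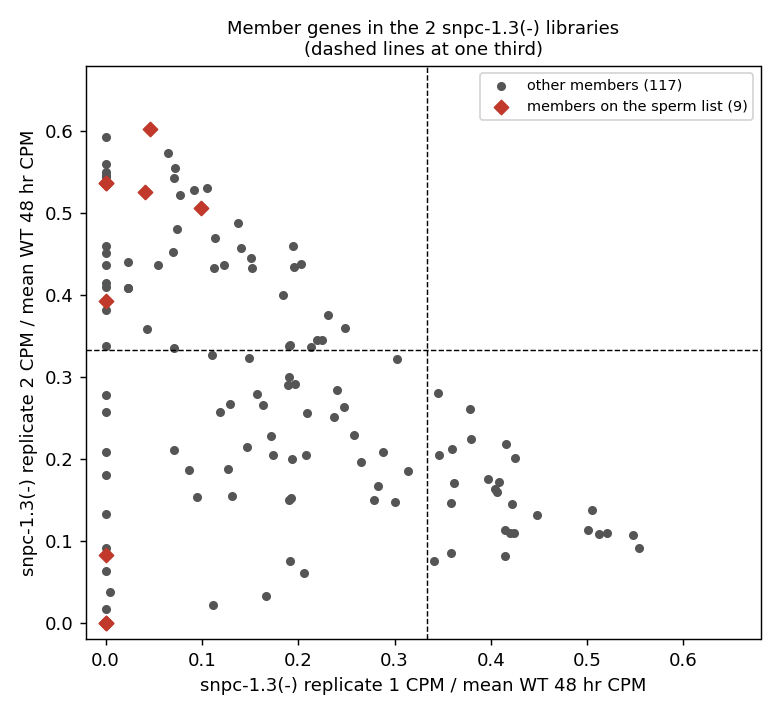
Level of each member in snpc-1.3(-) replicate 1 (x axis) and replicate 2 (y axis), each as a ratio to the mean of WT at 48 hr. Points are genes, diamonds are the 9 members on the sperm list and dashed lines mark the ratio that the rule used. The lower left field holds the 49 members that were low in both libraries, and 6 of the 9 members on the sperm list lie above the horizontal line.

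The rule leaves genes on both sides of a threshold that lie close together. The ratios of snpc-1.3(-) to WT means were 0.328 in oxi-1, 0.328 in C28F5.1 and 0.325 in msp-32, the members nearest to the limit. Just outside it lay T02G5.14, B0244.9 and rme-8, each at 0.335. The members' count also depends on how libraries are scaled. In CPM the median coding gene among the 1288 was itself at a log2 ratio of -0.55 (snpc-1.3(-) over WT) and the median member at -1.98. Scaled by TMM, which sets the typical feature equal between libraries, the median coding gene was at 0.01 and the median member at -1.40, and 50 genes met the rule, 46 of them among the 126. The reverse rule, a snpc-1.3(-) mean of at least 2 CPM that was at least 3 times the WT mean, was met by 8 genes in CPM and by 51 genes with TMM, so the unequal numbers of the 2 directions in CPM were not seen with TMM.

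Of the 4 gene lists considered, the sperm list held the most members. Of the 17 genes on the sperm list that met the WT minimum, 9 were members (52.9%), beside 9.78% of all 1288 genes. They were gsp-3, which encodes a sperm-specific protein phosphatase, msp-31, msp-32, msp-33 and msp-152 for the major sperm protein, and nspd-1, nspc-2, nspc-5 and nspc-6 of the nematode-specific peptide families. The nspd and nspc genes were put on the list by their symbols, and their expression in sperm was not checked. The gene gsp-3 had 0.446 and 2.28 CPM in snpc-1.3(-), against 4.05, 5.09 and 4.38 CPM in WT at 48 hr. For nspd-1 the snpc-1.3(-) libraries had 0 and 2.98 CPM and the WT libraries 6.68, 4.90 and 5.07 CPM. The libraries of the genotypes did not overlap in either gene, but snpc-1.3(-) replicate 2 kept more reads than replicate 1 in both.

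All 9 members on the sperm list were at least 3-fold below the WT mean in snpc-1.3(-) replicate 1, and 3 of the 9 were in replicate 2. Those 3 were nspc-2, nspc-5 and nspc-6, so gsp-3, nspd-1 and the msp members were not 3-fold lower in replicate 2. The genes of the sperm list that were not members summed to 25.5 and 59.1 CPM in the snpc-1.3(-) libraries, against 85.7, 93.3 and 95.7 CPM in WT at 48 hr. At 72 hr they summed to 34.9 to 36.8 CPM in snpc-1.3(2xtbs) and to 31.3 to 45.9 CPM in WT. The sum of these non-members was thus lower in snpc-1.3(-) than in WT at 48 hr and lower in WT at 72 hr than at 48 hr. What part sperm RNA had in the values of the other members was not tested. The msp and nspc genes have many near-identical copies, so a read of one copy can be counted on several, and their values are uncertain for a single gene.

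On the other lists, egg-1 was the only member of the 5 oocyte and yolk genes that met the WT minimum. This gene encodes a receptor-like protein of the oocyte surface that fertilisation needs. It had 0 and 2.11 CPM in snpc-1.3(-), against 5.80, 4.34 and 1.15 CPM in WT at 48 hr, with an overlap. None of the 18 small RNA pathway genes and none of the 2 sex determination genes that met the WT minimum were members.

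Levels in WT adults were the next thing to compare. The WT mean at 72 hr was at least 3-fold below that at 48 hr in 72 of the 126 members (57.1%), and in 31.5% of the 1288 genes. Since WT at 48 hr also set the membership, this is a description. In 109 members (86.5%) the means of snpc-1.3(-), snpc-1.3(2xtbs) and WT at 72 hr were all below that of WT at 48 hr, as in 55.5% of the 1288 genes. Of the 72 members, clec-223 had the highest WT level at 48 hr. The nspc-6 gene had 0 and 0.263 CPM in snpc-1.3(-) and 2.29, 3.39 and 3.92 CPM in WT at 48 hr, and it had at most 0.367 CPM in any library of 72 hr.

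daf-25 and mlt-11 went the other way. They were chosen after their values were seen. daf-25 encodes an ankyrin-repeat protein of cilia, and had 0.594 and 0.790 CPM in snpc-1.3(-), 3.52, 3.87 and 3.00 CPM in WT at 48 hr, 11.7, 57.3 and 93.7 CPM in snpc-1.3(2xtbs), and 49.9, 52.8 and 38.4 CPM in WT at 72 hr. mlt-11, which encodes a protease inhibitor used in molting, averaged 16.0 CPM in WT at 72 hr and 3.00 CPM in WT at 48 hr. Its snpc-1.3(-) libraries had 0.743 and 0.790 CPM.

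The comparison of snpc-1.3(2xtbs) with WT at 72 hr did not enter the rule, and asks whether the members differ where the repressor sites of snpc-1.3 are mutated. In edgeR's quasi-likelihood test over 16968 features, with a call at a log2 fold change of at least 0.26 in size and an adjusted p (Benjamini-Hochberg) of at most 0.05, 0 of the 126 members were called higher and 0 were called lower. Of all coding genes outside chromosome IV that were tested, 0.102% were called higher and 0.244% lower, and of all features 6.58% and 0.395%. At an unadjusted p below 0.05 in this test there were 11 members higher and 1 lower. At the same limit 2291 of the 16968 features were higher and 969 were lower. Among the 4913 tested coding genes outside chromosome IV, 97 were higher at that limit and a larger number were lower. The members' share higher was thus above that of these coding genes and below that of all features. Their share lower was below that of both. Whether the members differ from these sets was not tested. DESeq2 also called 0 members in either direction. In the edgeR test over 16968 features, the median log2 fold change of all 126 members was 0.05. It was -0.23 over the tested coding genes outside chromosome IV and -0.05 over all features. The sign of the members' median depended on the scaling: as log2 ratios of mean CPM the medians were -0.31 over the members and -0.60 over the 1288 genes, and after TMM they were 0.08 and -0.23. On simulated data for this comparison the test recovered 77% of features changed 4-fold and 10% of those changed 2-fold, so changes near 2-fold were mostly not detectable. The changed features were drawn from all those tested, with levels averaged over all 11 libraries. The members' own levels at 72 hr were not simulated, so the 77% need not hold for them.

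The levels of single libraries were also compared. In 5 members (3.97%) all snpc-1.3(2xtbs) libraries lay above all WT libraries of 72 hr, as in 1.55% of the 1288 genes. In 18 members (14.3%) they all lay below, as in 21.2% of the 1288 genes. The mean was higher in snpc-1.3(2xtbs) in 44 members (34.9%), or in 52 (41.3%) without its replicate 1, beside 14.2% and 23.2% of the 1288 genes.

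Among the named members, ggtb-1 came nearest to a call. It encodes a subunit of the enzyme that attaches geranylgeranyl groups to Rab proteins. It had 5.24, 3.97 and 3.85 CPM in snpc-1.3(2xtbs), against 2.80, 2.93 and 2.54 CPM in WT at 72 hr, with no overlap. Its log2 fold change was 1.15 ± 0.39 (SE), with an adjusted p of 0.0971 in the edgeR test. In snpc-1.3(-) it had 1.63 and 5.79 CPM, against 10.4, 13.5 and 11.8 CPM in WT at 48 hr.

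Over all members the lowest adjusted p in the edgeR test was 0.0611, in str-256, a gene of a chemoreceptor family that was chosen after its values were seen. It had 2.64, 3.45 and 2.48 CPM in snpc-1.3(2xtbs) and 1.36, 2.43 and 1.58 CPM in WT at 72 hr, and a log2 fold change of 1.12 ± 0.35 (SE). The sperm gene gsp-3 had 1.70, 1.95 and 0.917 CPM in snpc-1.3(2xtbs), against 1.09, 0.587 and 0.702 CPM in WT at 72 hr, with an adjusted p of 0.111. cosa-1 had a log2 fold change of 0.56 ± 0.35 (SE) and an adjusted p of 0.406 in the same test.

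Calls of members depended on 2 libraries. Without snpc-1.3(2xtbs) replicate 1 the edgeR test called 5 members higher, which were cosa-1, daf-25, glrx-10, zhit-1 and Y37D8A.2. In that fit 851 of all 16794 features tested were called higher. Without snpc-1.3(2xtbs) replicate 3 it called 11 higher, among them ggtb-1, gsp-3, msp-152, nspd-1 and str-256, and 1 lower, oxi-1. In this fit 2038 of all 16878 features tested were called higher and 490 lower. For coding genes outside chromosome IV the calls in these fits were not counted. Whether such calls were particular to the members was thus not tested. The lists of 5 and 11 genes shared 0 genes, so no member was called higher in both. Left out in turn, each of the other 4 libraries of 72 hr gave 0 calls of members in either direction.

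**Figure D4:**
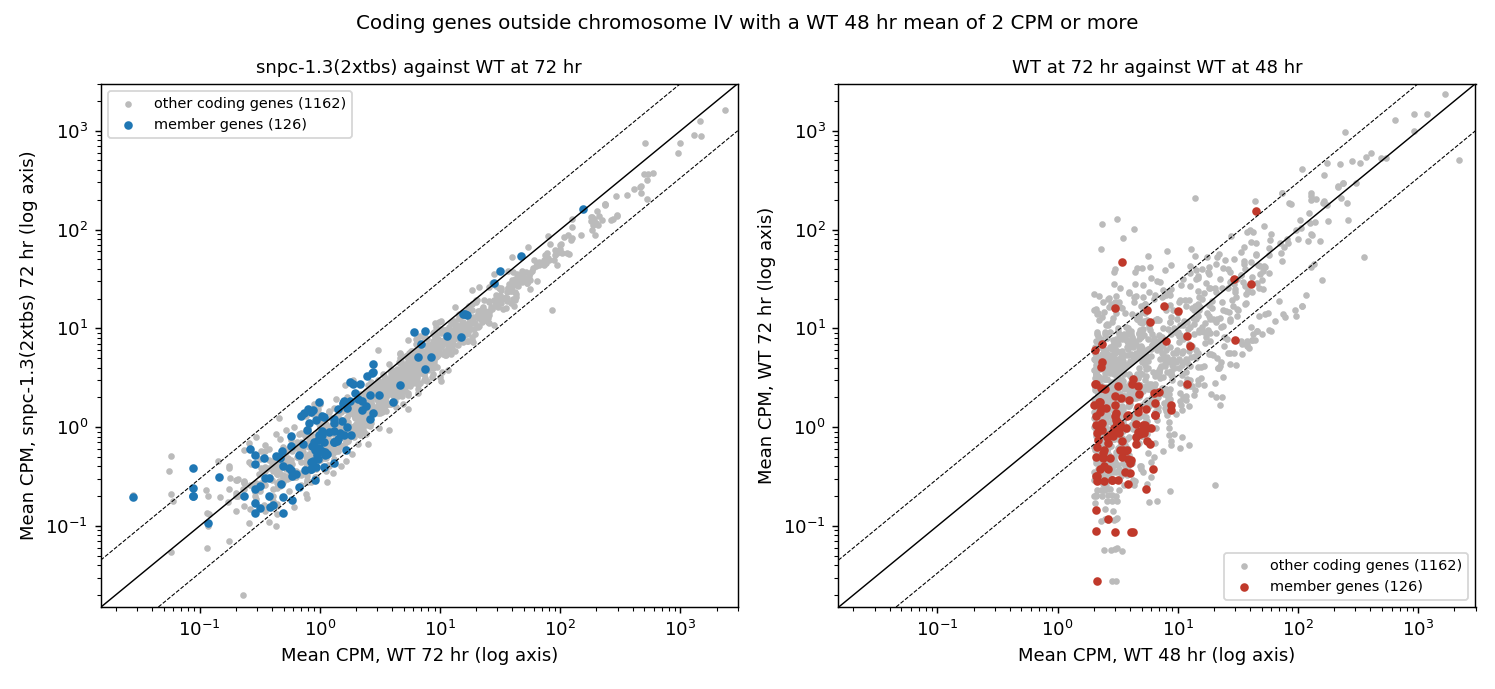
Mean CPM on log axes of the 126 members (coloured) and the other 1162 coding genes outside chromosome IV with a WT 48 hr mean of at least 2 CPM (grey). The left panel sets snpc-1.3(2xtbs) against WT at 72 hr and the right panel WT at 72 hr against WT at 48 hr. The solid line marks equal means, dashed lines mark 3-fold differences, and means below 0.02 CPM are drawn at 0.02. Members lie near the diagonal on the left, and 72 of them lie at or below the lower dashed line on the right.

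None of the members held the sequence of a chromosome IV piRNA, and neither did any of the 16906 coding genes outside chromosome IV. Annotated piRNAs of other chromosomes lay within 4 members (3.17%), beside 2.25% of the 1288 genes. They are shown here, from WBcel235, because a read of a piRNA that lies in an exon on the strand of the gene can be counted on both. The pair in F09C12.8 lies so, those in F35E8.13 and T01E8.1 lie outside the exons, and the one in ggtb-1 lies in an exon on the other strand. The capital marks the first base, a T as in the U that 21U-RNAs start with.
21ur-15067, within F09C12.8, II:5112775-5112795, plus strand: Tccaatgggtcgttgtgaaca
21ur-15200, within F09C12.8, II:5112772-5112792, plus strand: Tattccaatgggtcgttgtga
21ur-14863, within F35E8.13, V:15923644-15923664, plus strand: Tgatatcattatttggtaaaa
21ur-15355, within T01E8.1, II:10207531-10207551, plus strand: Tacttcgagtaagtttttggg
21ur-11608, within ggtb-1, III:7135934-7135954, minus strand: Tgaaagagcttcagataatga

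The overlapping pair in F09C12.8 had enough counts to matter for its gene. 21ur-15067 had 0 and 7 counts in snpc-1.3(-) and 3, 8 and 7 counts in WT at 48 hr. F09C12.8 had 1 and 15 counts in snpc-1.3(-) and 8, 19 and 16 counts in WT at 48 hr. The piRNA in F35E8.13 had 0 and 3 counts in snpc-1.3(-) and 0 in all 3 WT libraries of 48 hr, and the one in T01E8.1 had 0 counts in all 11 libraries.

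The core of the motif upstream of male piRNAs, CNGTTTCA in its letters, was searched from 250 bases before to 50 bases after the start of each gene, on both strands. It was found in 9 members (7.14%), beside 6.44% of the 1288 genes and 6.41% of all coding genes outside chromosome IV. In the 60 bases before chromosome IV piRNAs it was found on the same strand in 49.3%. For 2 of the members that hold it, both above 5 CPM in WT at 48 hr, the match is shown in capitals within 30 bases of WBcel235, on the strand of the gene.
slo-2, motif at X:11405982-11405989: ttagtttatttCCGTTTCAttttgcagcaa
oxy-4, motif at III:5158900-5158907: gtgaataataaTGAAACGGattttgtaaat
In oxy-4 the match is on the other strand, so that the reverse complement is seen. Of these, oxy-4 had 0 and 1 counts in snpc-1.3(-), against 30, 48 and 27 counts in WT at 48 hr.

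Binding of SNPC-1.3 was read from ChIP-seq at 48 hr in 1 kb bins that the files list, which are those with IP coverage above a background level. For each gene the log2 ratio of IP to input in snpc-1.3::3xflag worms was set against that in untagged N2 worms. In each replicate 76 members had a bin listed for both strains, and their median difference was -0.01 in replicate 1 and -0.05 in replicate 2. Over all coding genes outside chromosome IV it was -0.03 in both replicates, and over bins of the chromosome IV piRNA clusters it was 0.42 and 0.34. No member reached a difference of 1, and neither did any of the 8538 and 9265 coding genes outside chromosome IV with a listed bin. A gene's value is the mean over its listed bins and the cluster values are of single bins, so they are not directly comparable. The highest values of a member were 0.24 in replicate 1, in his-70, and 0.20 in replicate 2, in rsf-1.

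Some members share sequence and so repeat each other's reads. F35E8.13 and F35E8.10 have 923 identical bases in a row, and had the same 25 and 11 counts in snpc-1.3(-). K02F6.5 and K02F6.8 share 712 identical bases and had the same 49, 62 and 21 counts in WT at 48 hr. In all, 10 members had a partner among the members with nearly the same counts, so the 126 genes are not independent of each other. Strand also bears on what was counted. Pairs were taken in which a feature with at least 50 counts lies within an exon of another gene. On opposite strands the inner feature had more counts in 528 of 641 pairs (82.4%), beside 41 of 163 (25.2%) on the same strand. Reads thus appeared to be assigned by strand. The 41 pairs are not accounted for by this, since a read counts at each overlapping feature. The miRNAs, which come from the strand of their gene, held 57.1% to 81.7% of the counts of a library, so the strand counted was that of the gene if 1 setting was used for all features. Antisense small RNAs such as 22G-RNAs are then not in a member's count.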

How the data were processed

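Small RNAs of 16 to 30 nt from 11 libraries were used. The authors trimmed reads (Trimmomatic 0.39), kept 15 to 30 nt, aligned them to WBcel235 without mismatches at up to 5 best places (Bowtie 1.1.1), and deposited raw counts per feature from featureCounts (Subread 1.6.3), in which a read counts at each place and each overlapping feature. The strand setting is not given in the sources used here. For ChIP of SNPC-1.3, the authors deposited CPM of IP and input in listed 1 kb bins, from reads extended to 200 bp. The other tables were not used, and columns of the authors' own comparisons were not used.

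CPM of genes was computed from the deposited counts over all counts of a library. The test was edgeR's glmQLFit in its legacy form (version 4.0.16, R 4.3.3) over all 4 groups, after filterByExpr and TMM and with no block. All 126 members passed the filter over the 11 libraries, and 74 passed it over the 72 hr libraries alone. DESeq2 1.42.0 was an alternative. The test was checked on simulated data with 200 changed features. Replicate numbers did not pair the 72 hr libraries (correlations of same-numbered libraries -0.13, 0.09 and -0.31). Members and gene lists were chosen with earlier results of these data known. Named genes were the 12 members with the largest CPM difference, the 6 lowest ratios from 10 CPM, calls at 72 hr, 3 genes on each side of the ratio limit, members with a piRNA and up to 6 members per list.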

Additional observations from a re-analysis of the deposited data

How the results depend on the processing

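The number of members moved with the thresholds. It was 29 genes with a WT 48 hr mean of 5 CPM or more, 334 with 1 CPM or more, 409 with a ratio of 2 and 32 with a ratio of 5. It was 50 with TMM-scaled CPM and 69 when genes were chosen instead by an edgeR call at 3-fold on the same libraries, of which 31 were members; this is another way of choosing and no test of the members. Left out in turn, the libraries of 48 hr gave 103 to 285 genes: 285 without snpc-1.3(-) replicate 1 (76 of them members), 254 without snpc-1.3(-) replicate 2 (99 members) and 268 without WT replicate 2 (112 members). Members low in WT at 72 hr numbered 64 to 75 in the same way with the WT libraries, 91 with TMM and 55 with miRNA totals.

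Members called higher at 72 hr were 1 with no filter (nspd-1) and 0 to 11 with a library of 72 hr left out, and those called lower were 0 to 1. Over all features, 1015 were called higher with no filter and 600 to 2038 with a library left out. The other scalings, the 72 hr libraries alone (74 members tested) and the replicate block, in which same-numbered libraries were taken as pairs, each gave 0 and 0. Members with a piRNA match in exons alone were 2. The ChIP median ranged from -0.05 to -0.01 with a replicate left out. Low counts limit most members.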

Other observations

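On chromosome IV, which the rule left out, 72 of the 340 coding genes with a WT 48 hr mean of at least 2 CPM (21.2%) met the same criteria on level, beside 9.78% on the other chromosomes.

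In CPM, a snpc-1.3(-) mean of at least 2 CPM that was at least 3 times the WT mean at 48 hr was seen in 8 of 897 coding genes outside chromosome IV. With TMM, an alternative chosen after seeing the data, it was seen in 51 of 1441, beside 50 of 1405 that met the members' rule in the same scaling. Of the 8 genes in CPM, 6 had both snpc-1.3(-) libraries above all WT libraries. The highest of them was F53B6.7, with 19.0 and 19.3 CPM in snpc-1.3(-), against 3.17, 2.64 and 2.77 CPM in WT at 48 hr.

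In 3 members a noncoding RNA on the opposite strand had more counts than the member itself. These RNAs were chosen after their values were seen. K01D12.18, within K01D12.7, had 2.08 and 17.4 CPM in snpc-1.3(-), against 39.4, 39.6 and 27.2 CPM in WT at 48 hr. At 72 hr it had 5.46, 2.92 and 2.02 CPM in snpc-1.3(2xtbs) and 2.99, 2.43 and 2.54 CPM in WT. B0393.11, within B0393.4, had 2.38 and 12.8 CPM in snpc-1.3(-), against 26.6, 22.0 and 15.9 CPM in WT at 48 hr. In both RNAs the libraries of the genotypes did not overlap at 48 hr. K11H3.12, within K11H3.2, was not lower in snpc-1.3(-), with 9.51 and 18.6 CPM, against 12.8, 12.2 and 8.99 CPM in WT at 48 hr. Replicate 1 of snpc-1.3(-) was lower than replicate 2 in all 3 RNAs.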
